A study of Mus musculus with 28 samples.

Results

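RNA that came down with a PKR mutated in both motifs that bind double-stranded RNA (RM) was compared between mouse embryonic fibroblasts given 0.1 mM palmitic acid, a saturated fatty acid, and mock-treated cells. The comparison rests on the 6 RM libraries of dataset B, 3 of palmitate-treated and 3 of mock-treated cells, out of 28 samples in the series, and all features with enough counts were tested. The 6 libraries were assigned by their labels: cell line background (fibroblasts reconstituted with the mutant kinase), treatment and dataset. Further libraries used for comparison were 3 palmitate and 3 mock libraries with wild-type PKR (WT) of dataset B, and 3 palmitate and 3 mock libraries with RM of dataset A. The libraries of a group are called biological replicates by the labels, so the p-values measure the spread between such replicates. No input RNA and no control precipitate is used here, so RNA level in the cell, binding to PKR and background cannot be told apart, nor can fewer cells and less RNA per cell.

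PKR, the product of Eif2ak2, is a kinase that is switched on by double-stranded RNA and then phosphorylates the translation factor eIF2 alpha. Its double-stranded RNA-binding motifs make the contacts with RNA, and mutation of these motifs weakens that contact. Saturated fatty acids such as palmitate are known to act on fibroblasts through membrane lipid composition, lipid-sensing nuclear receptors and stress kinases, and excess palmitate is known to bring about a lipotoxic stress in which small nucleolar RNAs have been implicated.

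Total counts were 3490435, 2204502 and 2696431 in the palmitate libraries and 7122087, 7046318 and 3830243 in the mock libraries. Palmitate replicates 2 and 3 stood apart: their TMM factors, which correct the library size for composition, were 0.82 and 0.637, against 1.0 in palmitate replicate 1 and 1.14, 1.04 and 1.02 in the mock libraries. Spearman correlations between libraries of a group were 0.93 to 0.961 for palmitate and 0.98 to 0.986 for mock. The lowest, 0.93, was between palmitate replicates 1 and 3. The sample weights of limma voom, lower for libraries that vary more, were 0.352, 2.56 and 0.618 in palmitate replicates 1, 2 and 3. By these weights replicate 1 deviated most, so the values do not single it out as the sound library. The interquartile range of the log2 difference from the mock mean over all tested features was 0.44, 0.71 and 0.88 in palmitate replicates 1, 2 and 3. Each result was therefore also taken without replicate 2 and without replicate 3, and a feature is said to hold here if it was called in the same direction in all 3 of these fits. Summed over 17 fibroblast markers the palmitate libraries had 16076.3, 13772.2 and 11227.3 CPM, the read count relative to the TMM-corrected library size, against 17303.2, 15150.8 and 15082.7 CPM in the mock libraries. Of 17 macrophage and lymphocyte markers, 10 had no count in any of the 6 libraries, among them Cd3e, Cd79a and Adgre1, and the whole list summed to 8.89, 6.1 and 14.0 CPM in palmitate and 6.81, 6.96 and 7.42 CPM in mock libraries. Epithelial markers summed to 12.8 to 24.1 CPM in palmitate and 22.1 to 24.9 CPM in mock, with Epcam at 0, and endothelial markers to 31.6 to 44.2 CPM in palmitate and 26.3 to 31.5 CPM in mock, with Tie1 and Cldn5 at 0.

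With RM, palmitate libraries held more RNA of immediate early genes such as Nr4a1, of the matrix gene Ccn2 and the cytokine gene Lif, of the lipid-responsive gene Angptl4 and of short structured RNAs, and less RNA of Txnip and of sterol and fatty acid synthesis genes. Of 12466 features tested with edgeR's quasi-likelihood test, 939 (7.53%) passed an adjusted p of 0.05, 633 (5.08%) higher and 306 (2.45%) lower with palmitate. A smaller set of 146 features (1.17% of those tested) held without palmitate replicate 2 and without replicate 3, 115 of them higher (0.923%) and 31 lower (0.249%). Of these, 106 were called in every fit that left out 1 of the 6 RM libraries and 128 in the fit of the 6 RM libraries alone, but only 13 held when each of the 3 fits used the RM libraries alone. With total-count scaling 50 of the 115 higher features and 0 of the 31 lower ones lost their call. Of the 146, 32 were called with palmitate replicate 1 as the single palmitate library, which is then assumed to vary like the other groups. The total of 939 moved by over 1.5 times with most single libraries: it was 200 without palmitate replicate 2, 220 without palmitate replicate 3 and 2671 without palmitate replicate 1, and 197, 137 and 436 without mock replicates 1, 2 and 3. Without replicate 1 of the WT mock libraries, which share the fit, it was 1493. Scaling by total counts turned the split to 433 higher and 1998 lower, with the median log2 fold change of all features at -0.38 in place of -0.01. The 115 held features that were higher comprised 81 protein-coding genes, 13 transfer RNA features, 8 snoRNAs, 7 snRNAs, 3 processed pseudogenes, 2 long intergenic RNAs and 1 other RNA. All 31 held features that were lower were protein-coding. Among all tested features the 3 palmitate libraries lay above the 3 mock libraries in 15.6% and below them in 14.7%.

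**Figure D1:**
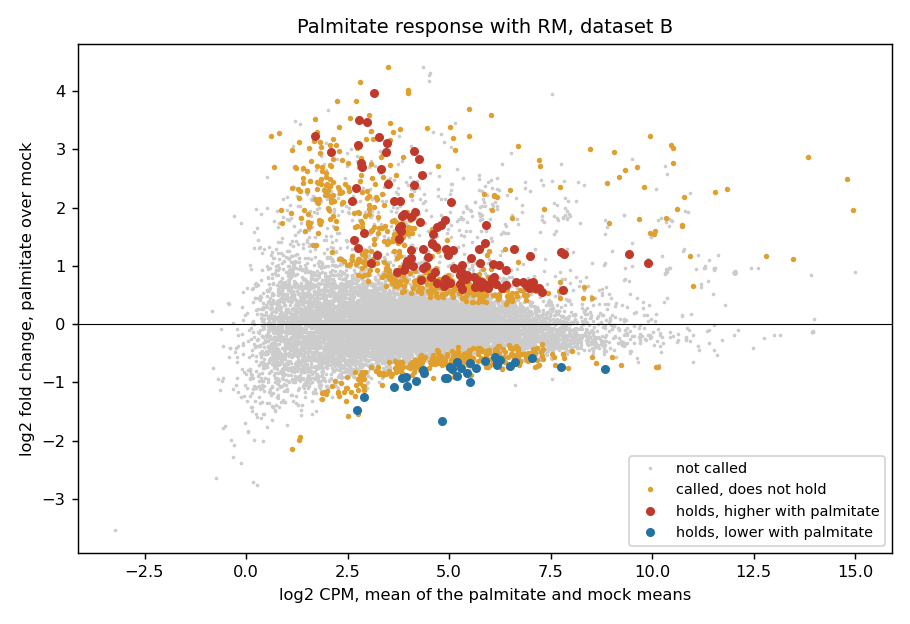
The log2 fold change of palmitate over mock with RM (vertical axis) against the log2 CPM averaged over the palmitate and mock means (horizontal axis), 1 point per tested feature. Red and blue points are the 115 higher and 31 lower features that hold, orange points are the other called features, and grey points were not called.

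The immediate early genes are genes that growth factors and stress switch on within minutes without new protein synthesis. Of 38 tested, 12 rose and 0 fell, and 8 held. Over all features 5.08% rose, 2.45% fell and 0.923% held as higher. The list's median log2 fold change was 0.49, against -0.01 over all features. Nr4a1, an orphan nuclear receptor of this class, had 30.4, 32.2 and 30.3 CPM in palmitate libraries against 2.97, 4.64 and 4.35 CPM in mock libraries. The palmitate libraries lay close to each other and above every mock library (means 31.0 ± 1.04 CPM and 3.99 ± 0.889 CPM, SD, n = 3 each). Its log2 fold change was 2.97 ± 0.23 (SE, as for each log2 fold change given here; adjusted p = 2.37e-06), and the gene lies at chr15:101097277-101105223 on mm9 (plus strand). The phosphatase gene Dusp5, which acts on nuclear ERK, had 24.4, 33.3 and 46.0 CPM with palmitate and 8.3, 14.5 and 17.1 CPM with mock (1.38 ± 0.26, adjusted p = 0.00977). Srf, the serum response factor that drives many immediate early genes, had 21.5, 30.5 and 36.1 CPM with palmitate against 12.4, 9.41 and 13.8 CPM with mock (1.29 ± 0.21, adjusted p = 0.0044). For Dusp5 and Srf the lowest palmitate library was replicate 1, and the groups did not overlap. The Dusp5 call ended with only the 6 RM libraries (adjusted p = 0.0692). The other held members were Ier3 (1.78), the cyclooxygenase gene Ptgs2 (1.75), the AP-1 subunit genes Fosl1 (0.85) and Fosl2 (0.72), and Dusp4 (0.7), all as log2 fold changes, and the calls of Fosl1, Fosl2 and Dusp4 ended with total-count scaling (adjusted p = 0.083, 0.227 and 0.239). Egr1, a classical member, did not pass: it had 22.7, 38.8 and 65.3 CPM with palmitate and 25, 44.1 and 57.8 CPM with mock, with overlapping groups (-0.03 ± 0.40, adjusted p = 0.979).

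The promoters of 4 held genes are shown, from RefSeq on GRCm38.p6, because 5 of the 63 held higher mRNAs that have a promoter window (7.94%) carry a CArG box, the letters bound by serum response factor, beside 1.81% of all genes with a window. Windows run from 250 bases before to 50 bases after the start. The CArG box was searched as a match to its usual consensus (CC, then 6 of A or T, then GG) on both strands, and the 5 genes were Srf, Dusp5, Lima1, Dgkh and Ppm1b. Capitals mark the CArG boxes in the first 3 and every TGACG, read on either strand, in Nr4a1. Srf is at chr17:46556113-46556412 (minus strand), Dusp5 at chr19:53528895-53529194 (plus strand), Lima1 at chr15:99820100-99820399 (minus strand) and Nr4a1 at chr15:101266596-101266895 (plus strand).
Srf: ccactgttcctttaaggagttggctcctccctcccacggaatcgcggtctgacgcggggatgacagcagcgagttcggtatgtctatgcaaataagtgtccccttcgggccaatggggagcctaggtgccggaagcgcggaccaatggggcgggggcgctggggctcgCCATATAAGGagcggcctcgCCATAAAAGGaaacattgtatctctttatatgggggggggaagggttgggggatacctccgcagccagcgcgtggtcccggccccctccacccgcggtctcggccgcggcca
Dusp5: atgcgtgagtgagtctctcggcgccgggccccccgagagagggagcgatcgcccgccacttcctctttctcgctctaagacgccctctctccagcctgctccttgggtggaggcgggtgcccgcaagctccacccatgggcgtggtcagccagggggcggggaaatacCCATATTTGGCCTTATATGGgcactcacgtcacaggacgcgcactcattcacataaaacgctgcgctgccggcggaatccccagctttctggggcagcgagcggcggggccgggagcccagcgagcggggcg
Lima1: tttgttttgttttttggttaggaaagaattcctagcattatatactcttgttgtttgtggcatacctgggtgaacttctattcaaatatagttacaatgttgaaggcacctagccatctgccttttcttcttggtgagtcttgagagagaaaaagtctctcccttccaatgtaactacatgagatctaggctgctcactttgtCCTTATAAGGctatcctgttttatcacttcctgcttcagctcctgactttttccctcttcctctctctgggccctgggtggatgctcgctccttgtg
Nr4a1: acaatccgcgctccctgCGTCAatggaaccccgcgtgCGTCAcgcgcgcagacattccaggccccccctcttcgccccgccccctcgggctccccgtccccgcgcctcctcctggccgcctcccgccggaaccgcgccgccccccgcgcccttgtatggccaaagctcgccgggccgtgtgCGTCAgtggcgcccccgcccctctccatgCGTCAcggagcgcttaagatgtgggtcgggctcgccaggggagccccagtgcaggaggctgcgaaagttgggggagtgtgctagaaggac
Srf and Dusp5 held 2 such boxes each and Lima1 held 1. The Nr4a1 window held 4 copies of TGACG, the core of the cyclic AMP response element, and 0.231% of all 32851 windows hold at least 4. That threshold was taken from the Nr4a1 window itself, so the low share only describes it. At least 1 copy stood in 22 of 63 held higher genes (34.9%), 7 of 20 held lower genes (35%) and 23% of all genes. The AP-1 letters TGANTCA were found in 6 of the 63 (9.52%), among them Lif, Olr1, Plaur, Kctd11 and Zyx, beside 8.97% of all genes. Other letters searched were TGACGTCA (4.76% of the 63, 2.03% of all genes), CACGTG (11.1% and 8.09%), TCACNCCAC (3.17% and 1.44%) and GGAATG (12.7% and 16.6%). GGAATG was thus less frequent in the held higher genes than over all genes. These counts describe letters in a window and carry no test.

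Genes known to respond to YAP, SRF and TGF-beta, which link cell shape and matrix tension to transcription, rose in 9 of 37 cases and fell in 1 (Tgfbi), and 6 held (over all features 5.08% rose, 2.45% fell and 0.923% held as higher). Ccn2, a secreted matrix protein and classical YAP target, (chr10:24315248-24318489 on mm9, plus strand) had 31.0, 32.7 and 40.2 CPM with palmitate against 5.33, 5.05 and 7.67 CPM with mock (2.55 ± 0.20, adjusted p = 2.37e-06). Its relative Ccn1 had 59.4, 86.5 and 111 CPM with palmitate and 29.1, 32.2 and 36.1 CPM with mock (1.39 ± 0.19, adjusted p = 0.00145). In both genes the groups were apart, and palmitate replicate 1 was the lowest palmitate library. Thrombospondin 1 (Thbs1), at 1298.0, 1270.5 and 1275.4 CPM with palmitate and 610, 623 and 629 CPM with mock, was even, with an SD of 14.7 CPM over the palmitate libraries (1.05 ± 0.14, adjusted p = 0.00106). Scaling by total counts ended the Thbs1 call (adjusted p = 0.0598, and 1.19e-21 to 0.0598 over the alternatives). Skil and Tagln also held (0.62 and 0.63), but Skil lost its call without any 1 of the mock libraries (adjusted p = 0.0567 to 0.0916) and Tagln without mock replicate 2 (adjusted p = 0.0515), where the ranges over alternatives were 0.00188 to 0.364 and 0.000738 to 0.348.

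Actin and adhesion genes were called higher in 5 of 44 cases and lower in 0, with a list median of 0.03, and 4 held, beside 5.08% higher calls and 0.923% held as higher over all features. Lima1, an actin-bundling protein, had 880, 920 and 1090 CPM with palmitate and 367, 407 and 471 CPM with mock (1.21 ± 0.15, adjusted p = 0.000256). The focal adhesion genes Zyx (160, 171 and 173 CPM with palmitate, 103, 101 and 102 CPM with mock) and Pdlim7 rose by 0.72 ± 0.10 and 0.67 ± 0.11, and both calls ended with total-count scaling (adjusted p = 0.236 and 0.264). Itga5, a fibronectin receptor subunit, had a log2 fold change of 0.61 and lost the call without mock replicate 2 (adjusted p = 0.0532, and 0.000204 to 0.45 over the alternatives). Nexn, an F-actin-binding protein named after its values were seen, had 37.6, 29.9 and 50.7 CPM with palmitate against 10, 11.5 and 16.4 CPM with mock (1.67 ± 0.20, adjusted p = 0.000256).

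**Figure D2:**
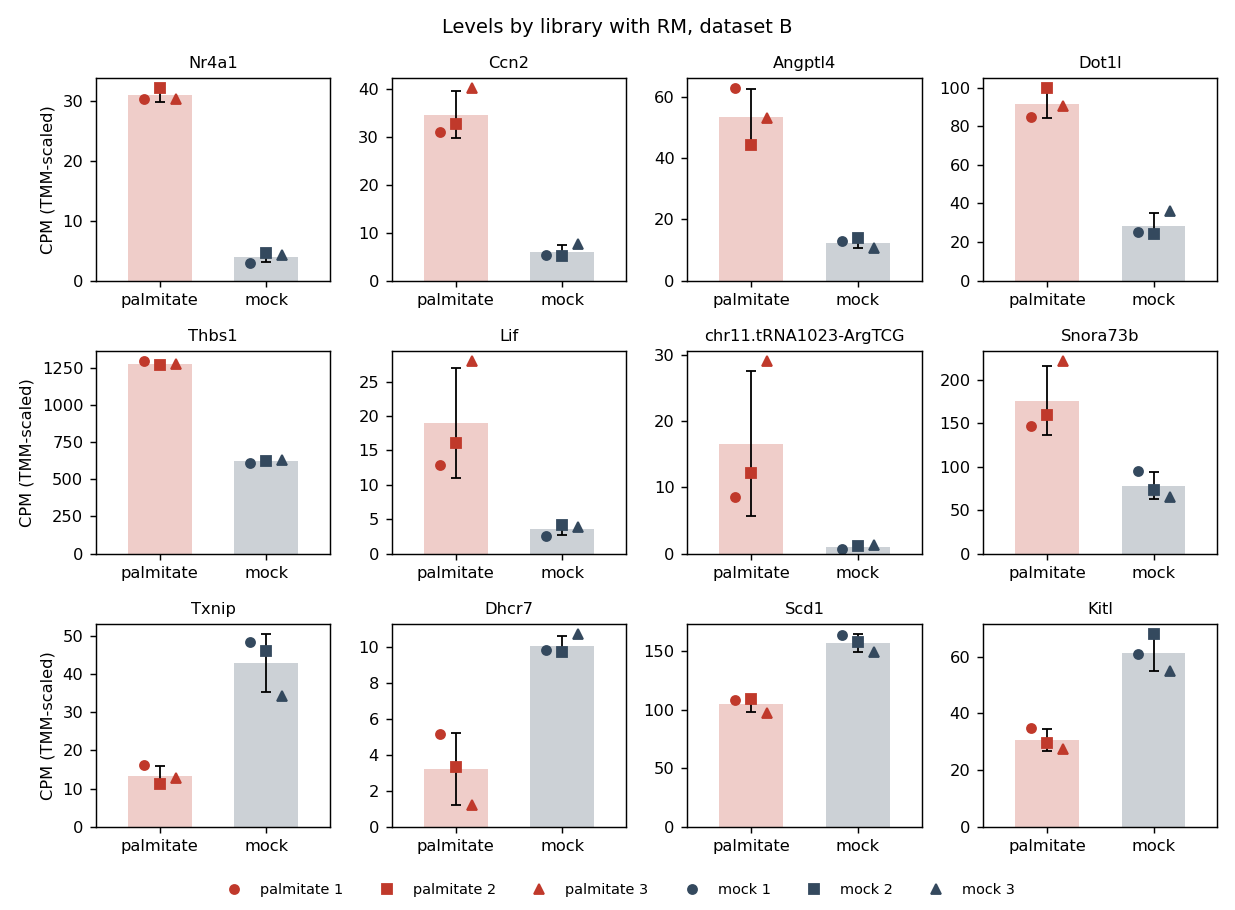
CPM after TMM scaling (vertical axes, starting at 0) in the 3 palmitate and the 3 mock libraries with RM, for 12 held features. Points are libraries, bars are means and error bars are SD (n = 3 each). Nr4a1 and Thbs1 are level over the palmitate libraries, and Lif and the arginine transfer RNA feature step up with the replicate number.

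Of 24 NF-kB and cytokine genes tested, 7 rose and 0 fell, and 5 held, beside 5.08% and 0.923% over all features. The cytokine gene Lif had 12.9, 16.1 and 28 CPM with palmitate and 2.6, 4.09 and 3.84 CPM with mock (2.41 ± 0.34, adjusted p = 0.00112). Relb, an NF-kB subunit, had 21.5, 22.7 and 24.5 CPM with palmitate and 12.4, 9.28 and 9.21 CPM with mock (1.13 ± 0.17, adjusted p = 0.00221). Tnfrsf12a, the receptor of TWEAK, rose by 1.33 ± 0.22, and the growth factor Csf1 had a log2 fold change of 0.55 and lost its call without mock replicate 2 (adjusted p = 0.0542, and 5.5e-05 to 0.593 over the alternatives). Among 17 p53 targets, 3 rose and 1 fell, beside 5.08% and 2.45% over all features. The cell cycle inhibitor gene Cdkn1a had 23.5, 25.5 and 22.2 CPM with palmitate against 9.54, 10.6 and 9.21 CPM with mock (1.27 ± 0.17, adjusted p = 0.00106). Zmat3 rose by 0.97 ± 0.14 and Sesn1, a stress-responsive regulator of mTORC1, fell by 0.92 on the log2 scale. In the hypoxia list only Vegfa was called, 1 of 15 genes and near the 7.53% called over all features. It had 71.4, 87.0 and 113 CPM with palmitate and 37.3, 38.6 and 56.8 CPM with mock (1.03 ± 0.18, adjusted p = 0.00614).

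Other held mRNAs, chosen after their values were seen, included chromatin and metabolic regulators with little spread between the palmitate libraries. Dot1l, the histone H3 lysine 79 methyltransferase, had 84.9, 99.8 and 90.4 CPM with palmitate and 25, 24.3 and 36.1 CPM with mock (1.7 ± 0.16, adjusted p = 2.11e-05). Pprc1, a coactivator of the PGC-1 family, had 281, 276 and 358 CPM with palmitate and 112, 130 and 146 CPM with mock (1.24 ± 0.13, adjusted p = 8.89e-05). Olr1, a scavenger receptor for oxidised LDL, had 23.2, 22.2 and 21.6 CPM with palmitate and 4.83, 7.77 and 5.88 CPM with mock (1.86 ± 0.25, adjusted p = 0.00106). Each of these genes was called under every alternative run, as were Nr4a1, Ccn2, Angptl4, Kctd11, Lbh, Slc20a1, Cdkn1a, Ptgs2, Nexn and Lima1.

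Lipid genes moved in both directions. Angptl4, a secreted inhibitor of lipoprotein lipase that PPARs induce when fatty acids are taken up (chr17:33910695-33918520 on mm9, minus strand), had 62.8, 44.3 and 53 CPM with palmitate against 12.9, 13.8 and 10.5 CPM with mock (2.10 ± 0.16, adjusted p = 2.37e-06). It was the only one of 28 tested fatty acid and PPAR response genes that rose, and 4 fell, beside 5.08% and 2.45% over all features. Acaa1a, Pnpla2 and Eci2, which act in fatty acid release and oxidation, were among the 4, and none of the 4 held. The call of Acaa1a, at 17.2, 16.1 and 10.5 CPM with palmitate and 23.7, 21.8 and 24.3 CPM with mock, ended without palmitate replicate 2 (adjusted p = 0.0855) or 3 (adjusted p = 0.147), over a range of 0.00915 to 0.529. Lpl, the lipase that Angptl4 inhibits, had 24.7, 16.1 and 19.8 CPM with palmitate and 36.2, 45.1 and 36.8 CPM with mock (-0.93 ± 0.16, adjusted p = 0.00513).

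Of 31 cholesterol and fatty acid synthesis genes, 12 fell and 0 rose, beside 2.45% lower calls over all features, and the list median was -0.47. The members were lower to a like degree in each palmitate library, with medians of -0.4, -0.41 and -0.55 in replicates 1, 2 and 3, as the plot of lists by library shows. Dhcr7, the last enzyme of cholesterol synthesis, had 5.16, 3.33 and 1.17 CPM with palmitate and 9.79, 9.68 and 10.7 CPM with mock (-1.47 ± 0.30, adjusted p = 0.0106), on only 18, 6 and 2 counts in the palmitate libraries. Scd1, the desaturase that makes monounsaturated fatty acids from palmitate and stearate, had 108, 109 and 96.8 CPM with palmitate and 164, 158 and 149 CPM with mock (-0.59 ± 0.11, adjusted p = 0.00675). The sterol carrier gene Stard4 had 82.9, 73.7 and 71.7 CPM with palmitate and 114, 125 and 124 CPM with mock (-0.66 ± 0.11, adjusted p = 0.0044). These 3 held and were called in all 6 fits without 1 RM library. The other 9 were Sqle, Idi1, Fdps, Lss, Msmo1, Scd2, Acly, Elovl6 and Fads2, whose log2 fold changes were between -0.84 and -0.43. Outside the list, Scd4, another desaturase, fell by 1.25 on the log2 scale, and Acat2 and Lpin1 fell by 0.72 and 0.73.

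Txnip, a thioredoxin-binding protein whose transcription follows glucose through ChREBP and MondoA, showed the lowest fold change among the held features. The gene is at chr3:96361880-96365806 on mm9 (plus strand). It had 16.1, 11.1 and 12.8 CPM with palmitate against 48.6, 46.1 and 34.3 CPM with mock (-1.66 ± 0.17, adjusted p = 3.07e-05), and was called under every alternative. It was the single member of 19 glucose-regulated targets to be called, beside 7.53% called over all features. Mlxip, which encodes MondoA, had 32.1, 40.5 and 43.1 CPM with palmitate and 24.7, 23.2 and 19.4 CPM with mock (0.75 ± 0.14, adjusted p = 0.00651). Further held genes that fell were the growth factor receptor gene Pdgfra, which is also in the fibroblast marker list (-0.78), the KIT ligand gene Kitl (-0.99), the matrix proteases Adamts1 (-0.90) and Adamts5 (-0.63), Hexim1, which inhibits P-TEFb together with 7SK RNA (-0.93), and Ston2 (-1.06), Mettl4 (-1.08), Amacr (-0.97) and Zfp369 (-0.91). Kitl had 35.0, 29.4 and 27.4 CPM with palmitate and 60.9, 68.1 and 55.2 CPM with mock, without overlap (adjusted p = 0.00169).

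DNA replication and mitosis genes gave 10 lower and 0 higher calls of 49, beside 2.45% lower calls over all features. None held, beside 0.249% held as lower over all features. Their median difference from mock grew over the palmitate libraries, at -0.14, -0.45 and -0.63 in replicates 1, 2 and 3. Aurka, a mitotic kinase, had 43.6, 27.2 and 26.8 CPM with palmitate and 58.7, 63.2 and 61.6 CPM with mock (-0.88 ± 0.19, adjusted p = 0.0159). Whether the make-up of palmitate replicates 2 and 3 had a part in these calls was not tested.

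Small nucleolar RNAs guide the modification of ribosomal and spliceosomal RNA, the H/ACA box class pseudouridylation and the C/D box class 2'-O-methylation. In the H/ACA box class 7 of the 37 tested were higher and none lower, and Snora23 and Snora73b held. Over all features 5.08% were called higher and 0.923% held as higher, for this and the other snoRNA lists below. Their genes are printed from the GENCODE M21 transcripts. Capitals mark the last ACA and the match to ANANNA nearest the middle, the pattern of the hinge box. The last ACA stands 1 base before the 3' end in Snora23 and 3 bases before it in Snora73b. In Snora23 another ACA overlaps it, so the marked letters may not be the ACA box. Snora23 lies at chr7:110046364-110046547 (plus strand, GRCm38), on the same strand as Ipo7, and Snora73b at chr4:132352322-132352526 (minus strand), on the same strand as Rcc1. Whether counting was stranded is not stated, so reads of a host intron and of the snoRNA cannot be told apart.
Snora23: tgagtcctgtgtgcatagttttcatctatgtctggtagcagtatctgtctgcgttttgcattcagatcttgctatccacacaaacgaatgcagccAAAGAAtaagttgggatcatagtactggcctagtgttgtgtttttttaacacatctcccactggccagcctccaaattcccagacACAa
Snora73b: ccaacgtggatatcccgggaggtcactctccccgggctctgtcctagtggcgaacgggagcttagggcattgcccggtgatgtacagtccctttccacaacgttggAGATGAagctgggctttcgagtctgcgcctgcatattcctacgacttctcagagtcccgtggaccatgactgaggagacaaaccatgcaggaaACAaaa
Snora23 had 46.7, 54.3 and 59.5 CPM with palmitate and 28, 31.5 and 32.2 CPM with mock (0.80 ± 0.15, adjusted p = 0.00919). Snora73b had 147, 160 and 222 CPM with palmitate and 95.3, 73.7 and 65.7 CPM with mock (1.16 ± 0.21, adjusted p = 0.0101). The groups did not overlap for either, but the Snora23 call ended without mock replicate 1 (adjusted p = 0.0502, over a range of 0.00047 to 0.333) and the Snora73b call without mock replicate 2 (adjusted p = 0.0515, over a range of 0.00011 to 0.365). Of 70 C/D box snoRNAs, 3 rose (Snord67, Snord1a and Snord17), 0 fell and none held, a share near the 5.08% of all features that rose. In a list by annotated class that was added after the data were seen, 20 of 224 snoRNA features without an Snora or Snord symbol rose, 0 fell and 6 held. The 9 small Cajal body RNAs gave 5 higher calls, of which none held. The nucleolar protein gene Wdr43 rose by 0.70 ± 0.12 and held. It overlaps Snord53 and Snord92 on the same strand, so its reads and theirs cannot be told apart.

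Transfer RNA features were the steepest class. All 233 tested had a positive log2 fold change, in a list added after the data were seen. Of these 95 rose and 13 held, beside 5.08% higher calls and 0.923% held as higher over all features. The median difference from mock was 0.87, 2.0 and 2.98 in palmitate replicates 1, 2 and 3, and all 13 held features increased in that order, which is the order of the falling TMM factors. This order was not particular to transfer RNA. Of all 115 held higher features 67 increased in it, among them 8 of 8 snoRNAs and 6 of 7 snRNAs. The held arginine feature chr11.tRNA1023-ArgTCG, at chr11:115275093-115275165 on mm9 (plus strand), had 8.6, 12.2 and 29.1 CPM with palmitate and 0.743, 1.09 and 1.28 CPM with mock, on 22 to 50 counts a palmitate library (3.97 ± 0.46, adjusted p = 0.000191). It was called under every alternative run, and it was the only held transfer RNA feature called with palmitate replicate 1 alone. Others were chr7.tRNA387-ArgTCG (3.46), chr13.tRNA85-LeuCAA (3.21), chrX.tRNA459-ValTAC (3.50) and chr3.tRNA27-TyrGTA (3.07), and the last 2 lost their calls without mock replicate 2 (adjusted p = 0.0544 and 0.0505, over ranges of 7.45e-06 to 0.157 and 8.93e-05 to 0.381). With only the 6 RM libraries 5 of the 13 were called, and chr7.tRNA387-ArgTCG (adjusted p = 0.0588) and chr13.tRNA85-LeuCAA (adjusted p = 0.0819) were not. Transfer RNA genes of 1 anticodon are often near-identical in sequence, so reads may be split between copies and single features are uncertain.

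Other structured RNAs mostly followed the same order of libraries, and the 4 given first did not hold. Rn7sk, the 7SK RNA that controls transcription elongation, had 11060.4, 23034.5 and 43161.8 CPM with palmitate and 2195.4, 3204.3 and 5278.3 CPM with mock (2.86 ± 0.74, adjusted p = 0.0487). Rpph1, the RNA of ribonuclease P, had 832, 2643.6 and 4200.4 CPM with palmitate and 229, 318 and 578 CPM with mock (2.77 ± 0.60, adjusted p = 0.0317). Rmrp, the RNA of ribonuclease MRP, had 821, 1886.4 and 2041.3 CPM with palmitate and 696, 434 and 487 CPM with mock (1.55 ± 0.30, adjusted p = 0.0122). The mitochondrial ribosomal RNA mt-Rnr1 had 18574.5, 44374.4 and 81635.3 CPM with palmitate and 4869.4, 8404.8 and 12389.7 CPM with mock (2.49 ± 0.46, adjusted p = 0.00855). For these 4 RNAs the groups did not overlap, and palmitate replicate 1 was the lowest of its group. Without palmitate replicate 3 the adjusted p was 0.19 for Rn7sk, 0.108 for Rpph1, 0.0879 for Rmrp and 0.0579 for mt-Rnr1, over ranges of 0.00357 to 0.687, 4.14e-05 to 0.588, 2.83e-05 to 0.505 and 1.3e-06 to 0.515. Mitochondrially encoded RNAs gave 5 higher calls of 35, all without hold, and the annotated snRNA class 104 of 238, of which 7 held. Over all features 5.08% were called higher and 0.923% held as higher. The highest held snRNA feature was Gm22306, with 2.87, 4.99 and 9.91 CPM with palmitate and 0.743, 0.273 and 0.767 CPM with mock (3.22 ± 0.56, adjusted p = 0.00585).

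MicroRNA features differed widely between the palmitate libraries. Of 174 tested, 2 rose and none held, beside 5.08% higher calls and 0.923% held as higher over all features. The median difference from mock was 0.29, 1.28 and 1.76 in palmitate replicates 1, 2 and 3. Mir434 and Mir21a were among the 5 features with the highest ratio of replicates 2 and 3 over replicate 1. Mir21a had 555, 1883.6 and 4181.8 CPM with palmitate and 251, 405 and 358 CPM with mock (2.71 ± 0.86, adjusted p = 0.0895). Mir434 had 63.7, 231 and 753 CPM with palmitate and 19.1, 20.3 and 28.4 CPM with mock (3.95 ± 1.22, adjusted p = 0.0821). Other fits called Mir21a and Mir434: DESeq2 (adjusted p = 0.0094 and 0.00365) and limma voom with sample weights (adjusted p = 0.0134 and 0.00984). So did edgeR without palmitate replicate 1 (adjusted p = 0.0275 and 0.0331). The counts are those of the hairpin locus. The mature forms, from RefSeq, are shown with the seed, bases 2 to 8, in capitals, and the 4 seeds differ.
mmu-miR-21a-5p: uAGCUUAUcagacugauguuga
mmu-miR-21a-3p: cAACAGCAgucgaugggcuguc
mmu-miR-434-3p: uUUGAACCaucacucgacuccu
mmu-miR-434-5p: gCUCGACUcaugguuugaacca
Mir21a is at chr11:86584120-86584141 for its 5p arm (GRCm38.p6, minus strand) and Mir434 at chr12:109594565-109594586 for its 3p arm (plus strand).

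**Figure D3:**
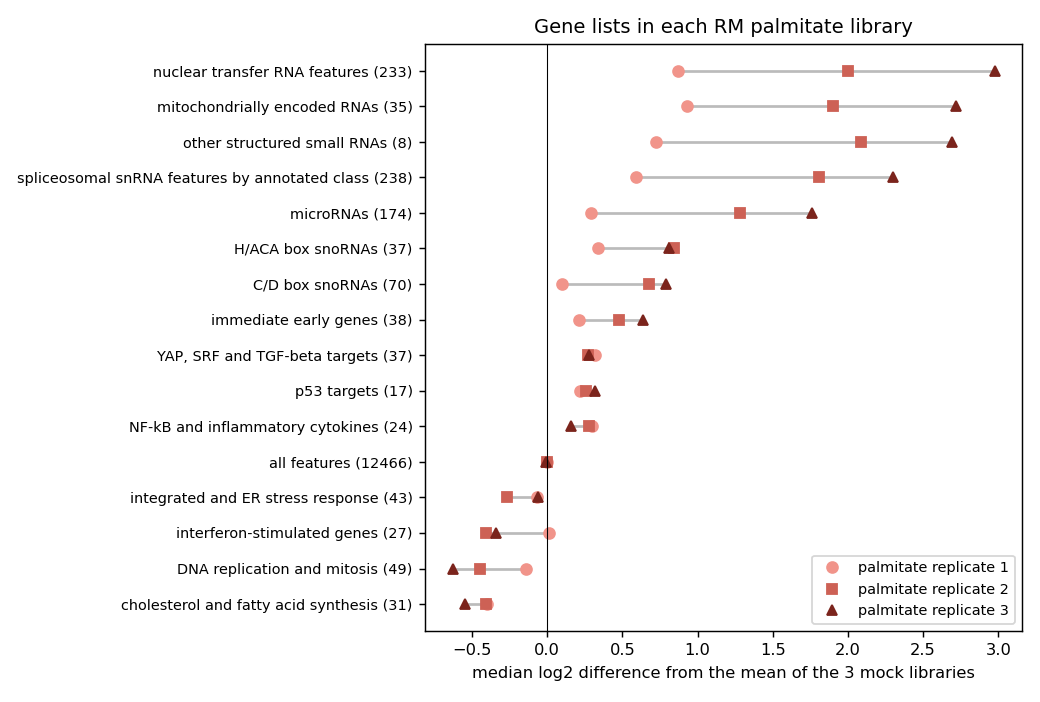
The median log2 difference from the mean of the 3 mock libraries (horizontal axis) for each gene list (vertical axis, tested members in brackets) in palmitate replicates 1, 2 and 3 with RM. Transfer RNA and mitochondrially encoded RNAs spread from 0.87 to 2.98 and from 0.93 to 2.72, while YAP, SRF and TGF-beta targets lie together at 0.27 to 0.32.

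The share of all counts was also taken for each RNA class. Mitochondrially encoded RNAs took 4.44%, 7.69% and 11.0% of counts in palmitate replicates 1, 2 and 3 and 1.33%, 2.41% and 3.36% in the mock libraries. Transfer RNA features took 0.351%, 0.591% and 0.946% with palmitate and 0.145%, 0.262% and 0.211% with mock. Other structured small RNAs took 1.36%, 2.47% and 3.4% with palmitate and 0.402%, 0.47% and 0.721% with mock. The groups did not overlap in these 3 classes, and the exact two-sided permutation test gave p = 0.1 for each, the smallest that 3 against 3 libraries allow, and 0.217 after Benjamini-Hochberg adjustment over 13 classes. H/ACA box snoRNAs took 0.315%, 0.345% and 0.286% with palmitate and 0.284%, 0.292% and 0.274% with mock (exact permutation p = 0.2), and C/D box snoRNAs 0.968%, 1.27% and 0.961% with palmitate and 1.19%, 1.28% and 0.88% with mock (exact permutation p = 0.9). The snoRNA features without an Snora or Snord symbol held a larger share. They took 7.86%, 6.94% and 6.72% with palmitate and 6.81%, 11.5% and 11.1% with mock (exact permutation p = 0.3), a ratio of means of 0.73 with overlapping groups. Replication-dependent histone mRNAs overlapped between groups, at 0.119% to 0.152% with palmitate and 0.112% to 0.135% with mock (exact permutation p = 0.4).

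**Figure D4:**
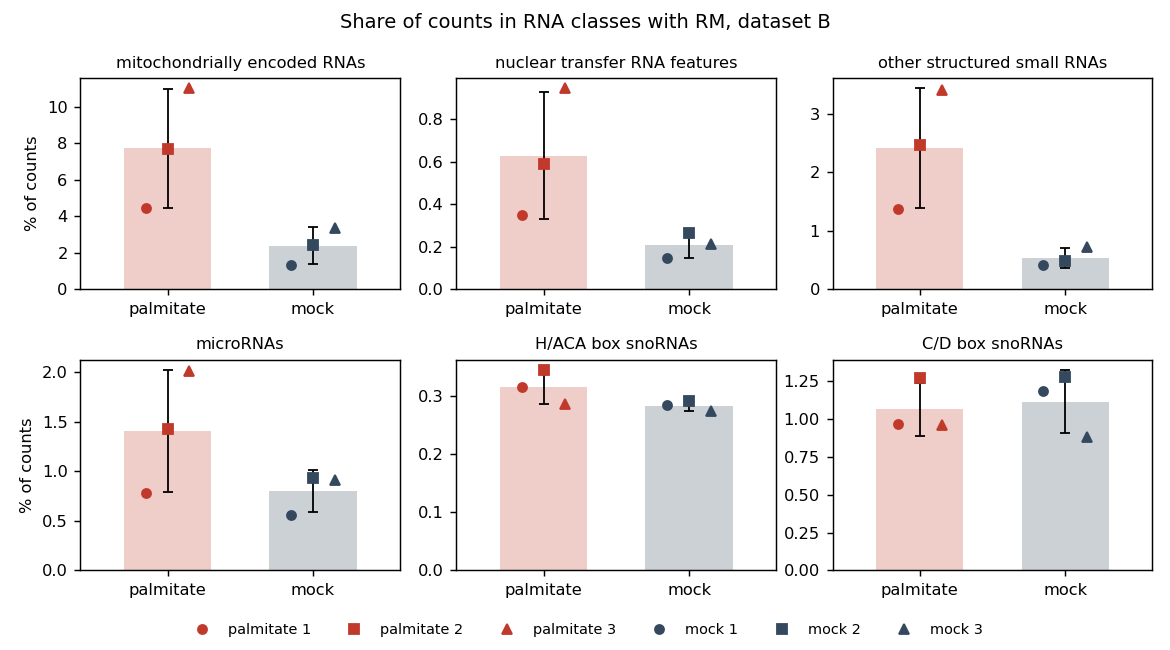
The share of all counts, in percent (vertical axes, starting at 0), taken by 6 RNA classes in the 3 palmitate and 3 mock libraries with RM. Points are libraries, bars are means and error bars are SD (n = 3 each). Mitochondrially encoded, transfer and other structured RNAs lie above mock in every palmitate library, and the H/ACA and C/D box classes overlap.

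PKR takes part in the stress and interferon responses, and the genes of both were looked at. Over all features 5.08% were called higher and 2.45% lower, and 0.249% held as lower. Of 43 integrated and endoplasmic reticulum stress response genes, 0 rose and 3 fell (Trib3, Shmt2 and Pdia4), and none held. Ddit3, the CHOP transcription factor, had 3.73, 3.88 and 6.99 CPM with palmitate and 5.7, 3.82 and 5.63 CPM with mock (-0.10 ± 0.33, adjusted p = 0.892), and Atf4 a log2 fold change of 0.17 ± 0.13 (adjusted p = 0.395). Of 27 interferon-stimulated genes, 1 rose (Cxcl10) and 2 fell (Stat2 and Parp14), and of these Parp14, an ADP-ribosyltransferase, held (-0.84 ± 0.16, adjusted p = 0.00811). Eif2ak2 itself had 10, 17.7 and 22.7 CPM with palmitate and 10.5, 10.2 and 10.2 CPM with mock (0.64 ± 0.24, adjusted p = 0.0994). Replicate 1 lay within mock, and without it the transcript passed (adjusted p = 0.00378, over a range of 0.00378 to 0.99). These reads can come from the introduced gene and do not check the mutation.

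The held features were then looked up with WT and in dataset A. The WT libraries of dataset B are other samples, but they share the filter and the estimate of spread with the fit that gave the held set, and the dataset A libraries had no part in it. With WT in dataset B, 100 of the 115 higher features had the same sign and 82 were called higher, beside 9.43% higher calls over all features. Of the 31 lower features, 30 had the same sign and 20 were called lower, beside 6.12%. Nr4a1 had 32.6, 18.2 and 24.2 CPM in WT palmitate libraries against 1.93, 2.44 and 2.34 CPM in WT mock libraries (3.49, adjusted p = 4.17e-07), and Txnip 23.5, 23.7 and 24.2 CPM against 81.1, 89.4 and 79.4 CPM (-1.81, adjusted p = 2.1e-06). In dataset A, where 54 of 11328 features were called (0.477%), 113 of the 115 were tested, 95 had the same sign and 19 were called, beside 0.318% higher calls over all features. Among these were Angptl4 (2.59 ± 0.25, adjusted p = 1.71e-05), Ccn2 (2.54 ± 0.30, adjusted p = 0.000328) and Nr4a1 (1.83 ± 0.32, adjusted p = 0.00991). In palmitate replicates 1, 2 and 3 of dataset A, Angptl4 had 35.3, 58.6 and 28.7 CPM. Ccn2 had 16.5, 0.0 and 19.5 CPM there, and Nr4a1 6.87, 17.2 and 13.3 CPM. Many held features read 0.0 or 3.45 CPM in that replicate 2, so its depth was low and its values are coarse. Of the 31 lower features, 26 had the same sign and 1, Adamts1, was called (-0.99, adjusted p = 0.0363), beside 0.159%. Of the 13 held transfer RNA features 5 had the same sign with WT and 0 were called, while in dataset A 10 of the 12 tested had the same sign and 0 were called. The held snoRNAs ran the other way in dataset A: 7 of 8 had the opposite sign, among them Snora73b (-0.77) and Snora23 (-0.48), none past the test. Over the whole lists in dataset A the median log2 fold change was -0.35 for H/ACA box and -0.8 for C/D box snoRNAs. With WT in dataset B the same lists had medians of 1.6 and 0.87. There 32 of 37 H/ACA box and 28 of 70 C/D box snoRNAs were called higher. So were 125 of 224 snoRNA features without an Snora or Snord symbol, beside 9.43% over all features.

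**Figure D5:**
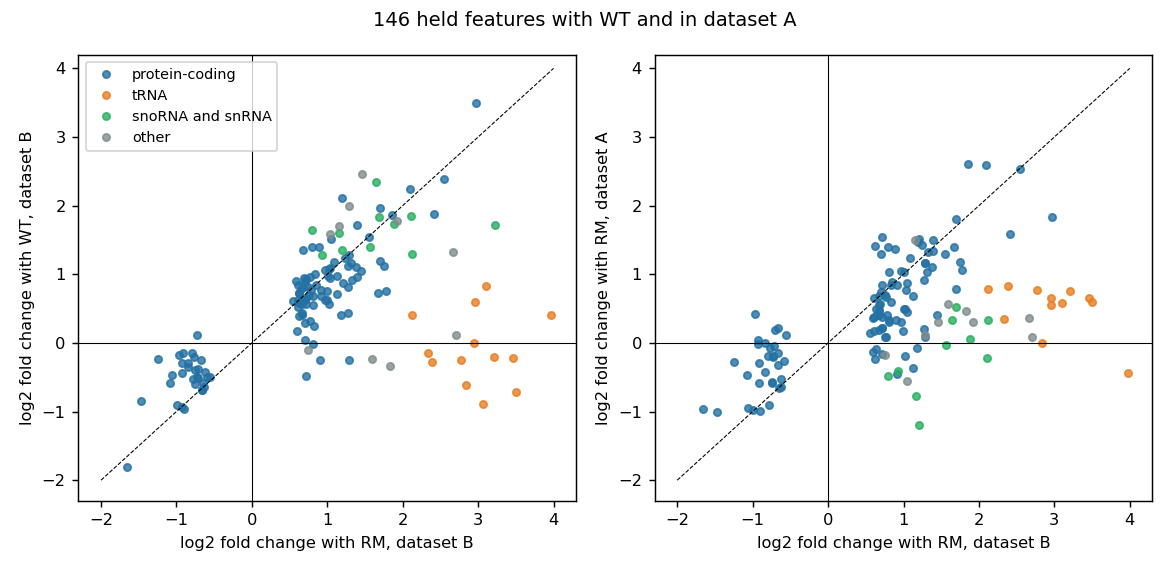
Log2 fold changes of palmitate over mock for the 146 held features with RM in dataset B (horizontal axes) against WT in dataset B (left) and RM in dataset A (right). Points are features coloured by class and the dashed line marks equal values. Most protein-coding genes share the sign with WT, and the transfer RNA features lie well below the line, 13 of them in the left panel and 12 in the right.

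The response with RM minus that with WT was tested directly, and 0 of 12466 features passed by edgeR's quasi-likelihood test, with 2011 (16.1%) at an unadjusted p under 0.05. DESeq2 called 396 and limma voom with sample weights 1061, and edgeR without RM palmitate replicate 1 called 903 and without WT mock replicate 3 called 110. For chr11.tRNA1023-ArgTCG, with 2.56, 2.6 and 1.17 CPM in WT palmitate and 1.65, 1.67 and 1.34 CPM in WT mock libraries, the difference between the responses was 3.57 ± 0.69 (adjusted p = 0.078). The ribosomal protein gene Rps2, with 53.1, 76.5 and 99.7 CPM in RM palmitate and 36.2, 26.1 and 30.2 CPM in RM mock libraries, had a difference of 1.54 ± 0.26 (adjusted p = 0.078). Rps2 overlaps Snora64 on the same strand, so reads of the gene and the snoRNA cannot be told apart. Among the 13 held transfer RNA features, all 13 had an unadjusted p under 0.05 for this difference, against 27 of the other 102 held higher features and 12 of the 31 held lower ones. The held features were chosen by their RM response, which is part of this difference. Low p-values are favoured by that choice, so these counts cannot show a difference between RM and WT. No feature is therefore called particular to RM.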

How the data were processed

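RNA that coprecipitated with PKR was, per the labels' protocols, isolated in Trizol and fragmented before an Illumina small RNA kit was used for the libraries. The build mm9 and the tools CASAVA 1.7.0 and 1.8.2 and Novoalign are named, with no roles given, per the submitters' processing notes. The deposited counts per feature are raw read counts for 30210 features, and whether counting was stranded is not stated in the labels used. The authors' deposited table also holds a log2 ratio and a false discovery score, taken to be a scaled negative log10. By the authors' deposited table, a total of 580 features passed a score of 13.01 (575 higher, 5 lower), among them 60 of the 146 features that hold here. Another 60 columns of per-sample values were not used, and the single libraries of dataset C were not analysed here.

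Counts of the 12 libraries of dataset B were fitted with edgeR 4.0.16 (R 4.3.3): TMM scaling, filterByExpr, 1 mean per group, robust quasi-likelihood test, Benjamini-Hochberg adjustment over all 12466 features at 0.05 (biological coefficient of variation 0.191). Dataset A was fitted apart. Only dataset B has 2hr in its column names, and no label explains it. Every adjusted p in the text is from edgeR unless another tool is named. limma 3.58.1 (voom) and DESeq2 1.42.0 were alternatives. Class shares were compared by an exact two-sided permutation test. The fit was also run on simulated counts that share a mean profile and spread over all libraries. No simulated library stands apart, so that run does not cover the deviation between the palmitate libraries seen here. Count-based intervals cover counting error only.

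Members and lists were chosen with earlier results of these data known. Named features are the 12 highest and 12 lowest log2 fold changes among those that hold, provided the higher group averaged 10 counts or more and the groups were apart, up to 3 members of each list by p, a few set genes, the 5 most abundant features, and the 5 features at each end of the ratio between palmitate replicates 2 and 3 and replicate 1. Other genes were named after their values were seen, and a few that the rule names are not reported here. Promoter and microRNA sequences are from RefSeq (GRCm38.p6), snoRNA sequences from GENCODE M21.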

Additional observations from a re-analysis of the deposited data

How the results depend on the processing

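The 939 calls of the palmitate response with RM became 2431 with total-count scaling, 3082 with limma voom and sample weights, 276 with only the 6 RM libraries and 37 without palmitate replicates 2 and 3. Leaving out 1 library gave 137 to 2671, where the fits without a WT library were chosen after seeing the data. The 146 features that hold became 47 with voom, 248 with no filter on low counts and 13 when each fit used only the 6 RM libraries, and 111 to 146 were left after a further library was left out. With total-count scaling 161 held (65 higher, 96 lower, 63 of them among the 146), with DESeq2 210 (112 among the 146). The difference between RM and WT, with 0 calls, had 119 with total-count scaling, 396 with DESeq2, 1061 with voom, 125 with no filter, and 0 to 903 with 1 library left out. For WT, 1938 calls became 1084 with total-count scaling and 3540 with voom, and 923 to 2154 with 1 library left out. For RM in dataset A, 54 calls became 12 with total-count scaling, 104 with DESeq2, 311 with voom, 349 with no filter, and 5 to 127 with 1 library left out. Without mitochondrially encoded RNAs and Lars2, the palmitate over mock ratio of the share was 1.19 for H/ACA box snoRNAs and 0.93 for ribosomal protein mRNAs. Eif2ak2 turned to -0.04 without palmitate replicates 2 and 3. The cause of these shifts was not tested.

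Same-numbered palmitate and mock libraries deviated together with r = 0.177, -0.038 and 0.101, and differently numbered ones with r = -0.183 to 0.09. With 3 libraries a group these values cannot tell whether the numbers pair the samples, and the main fit used no pairing. With the replicate number as a block there were 975 calls with RM, 168 features that hold (59 of the 146 among them), 104 calls for the difference between RM and WT, 1714 with WT and 3 with RM in dataset A. Features with few counts, such as Dhcr7, are limited by depth, since 3 counts stand for 0.86, 1.66 and 1.75 CPM in palmitate replicates 1, 2 and 3.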

Other observations

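Ribosomal protein mRNAs gave 6 higher and 0 lower calls of 84, near the 5.08% of all features called higher, and Rps2 and Rpl26 held. Over all features 2.45% were called lower, 0.923% held as higher and 0.249% held as lower, for these and the lists below. Their share of all counts was lower without overlap, at 0.552%, 0.505% and 0.469% with palmitate and 0.613%, 0.568% and 0.573% with mock (exact permutation p = 0.1, the smallest possible, and 0.217 adjusted over 13 classes). Replication-dependent histone mRNAs gave 2 higher calls of 61 and oxidative stress genes 3 higher and 4 lower of 23, of which the metallothionein gene Mt1 held (0.90). Extracellular matrix genes gave 1 higher and 3 lower calls of 43, lysosome and autophagy genes 0 higher and 3 lower of 34, and nuclear-encoded respiratory chain genes 3 higher and 3 lower of 71. Nfatc2, a calcium-regulated transcription factor, was the single call among 22 NFAT and calcium genes (0.89 ± 0.17, edgeR adjusted p = 0.00712) and held. Heat shock genes gave 1 higher and 1 lower call of 22, snoRNP and nucleolar proteins 2 higher of 41, mitochondrial gene expression factors 1 higher of 28, and genes of PKR and double-stranded RNA binding proteins 1 lower of 27 (Ppp1ca). Of 42 ribosomal RNA features 1 was called higher, and of 7 spliceosomal snRNAs with a gene symbol 2 were. The 5 noncoding snoRNA host genes and the 7 nuclear long noncoding RNAs tested had medians of 0.80 and 0.67 with 0 calls by edgeR.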
